A study of Caenorhabditis elegans with 78 samples.

Results

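The 7 fatty acid desaturase genes of *C. elegans*, *fat-1* to *fat-7*, were followed by their names through the whole-worm RNA sequencing of 6 strains, and all 7 were found among the 42048 genes of the count tables. The animals were young adults grown at 25°C and collected in generation F3. They gave 24 libraries of the 78 samples of the series, from 4 cultures per strain that the study describes as independent. The strains were wild type (N2), *jmjd-5* (allele zr1234), *jmjd-1.2* (allele zr1010), a triple mutant of the *jmjd-3* family (alleles gk384 of *jmjd-3.1*, tm3121 of *jmjd-3.2* and tm3197 of *jmjd-3.3*, written *jmjd-3.1/2/3* in the plots), a quadruple mutant that carries zr1234 on top of these alleles, and a double mutant that carries zr1234 together with zr1010. The study uses these strains to ask how histone demethylases acting on H3K36 and H3K27 methylation share their work. Each genotype was represented by 1 strain, zr1234 changes residues of the catalytic JmjC domain and leaves the mRNA in place, and all strains were grown at the same temperature.

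Desaturases insert double bonds into fatty acyl chains, and *C. elegans* makes its polyunsaturated fatty acids itself with this set of enzymes, largely in the intestine. FAT-5, FAT-6 and FAT-7 place the first double bond in saturated chains, with FAT-5 acting on palmitic acid and FAT-6 and FAT-7, close relatives of each other, turning stearic acid into oleic acid. FAT-2 then converts oleic into linoleic acid, FAT-1 turns omega-6 into omega-3 fatty acids, and FAT-3 and FAT-4 add the further double bonds that lead to arachidonic and eicosapentaenoic acid. The sequence names of the 7 genes in RefSeq are Y67H2A.8 (*fat-1*), W02A2.1 (*fat-2*), W08D2.4 (*fat-3*), T13F2.1 (*fat-4*), W06D12.3 (*fat-5*), VZK822L.1 (*fat-6*) and F10D2.9 (*fat-7*).

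Library totals ranged from 3087933 to 9906241 counts, and N2 was sequenced less deeply (3927979 to 6372354) than *jmjd-5* (6431200 to 7565222). N2 cultures 2 and 4, and *jmjd-5* cultures 3 and 4, differed by no more than sampling noise (mean chi-square per gene 0.976 and 1.03, against 1.97 to 4.47 and 1.11 to 1.74 in the other pairs of these strains), so that each pair was summed and counted as 1 sample, which leaves 22 samples (n = 3 for N2 and *jmjd-5*, n = 4 for the others). The *jmjd-1.2* mRNA was at 1 to 3 counts in *jmjd-1.2* and at 1 to 13 in the double mutant, against 611 to 2256 in the other libraries. Counts of *jmjd-5* and the *jmjd-3* genes do not check the labels, since mRNA was still counted in the mutants. All 8 intestine markers found in the tables, of 9 listed, were detected in every strain.

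Before strains were compared, the counts of each desaturase were set against the library totals, since 5 of the 7 genes did not follow them. Across the 24 libraries, with strain taken into account, *fat-2* counts rose by only 0.30 on the log2 scale for each doubling of the total, *fat-6* by 0.38, *fat-1* by 0.45, *fat-4* by 0.57 and *fat-3* by 0.70, whereas *fat-5* rose by 1.11 and *fat-7* by 1.00, close to proportion. *fat-2* thus stayed between 1535 and 2112 counts while the totals differed 3.21-fold. Counts of abundant genes in general rose less steeply than those of rare genes: the median rise was 0.86 for the 639 genes with a mean count of 1600 or more and 1.54 for the 5494 genes under 100. Of the 15641 genes tested, 627 (4.01%) rose by less than 0.6, as *fat-1*, *fat-2*, *fat-4* and *fat-6* did. The yolk gene *vit-6* lay between 8249 and 9697 counts in every library. The submitters removed reads that looked like PCR duplicates before counting, and whether this step accounts for the flat counts was not tested. For *fat-1*, *fat-2*, *fat-3*, *fat-4* and *fat-6*, CPM (counts scaled to the normalized library size) therefore fell as libraries became deeper, and their differences between strains are given below beside the raw counts of libraries of near-equal total.

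**Figure D1:**
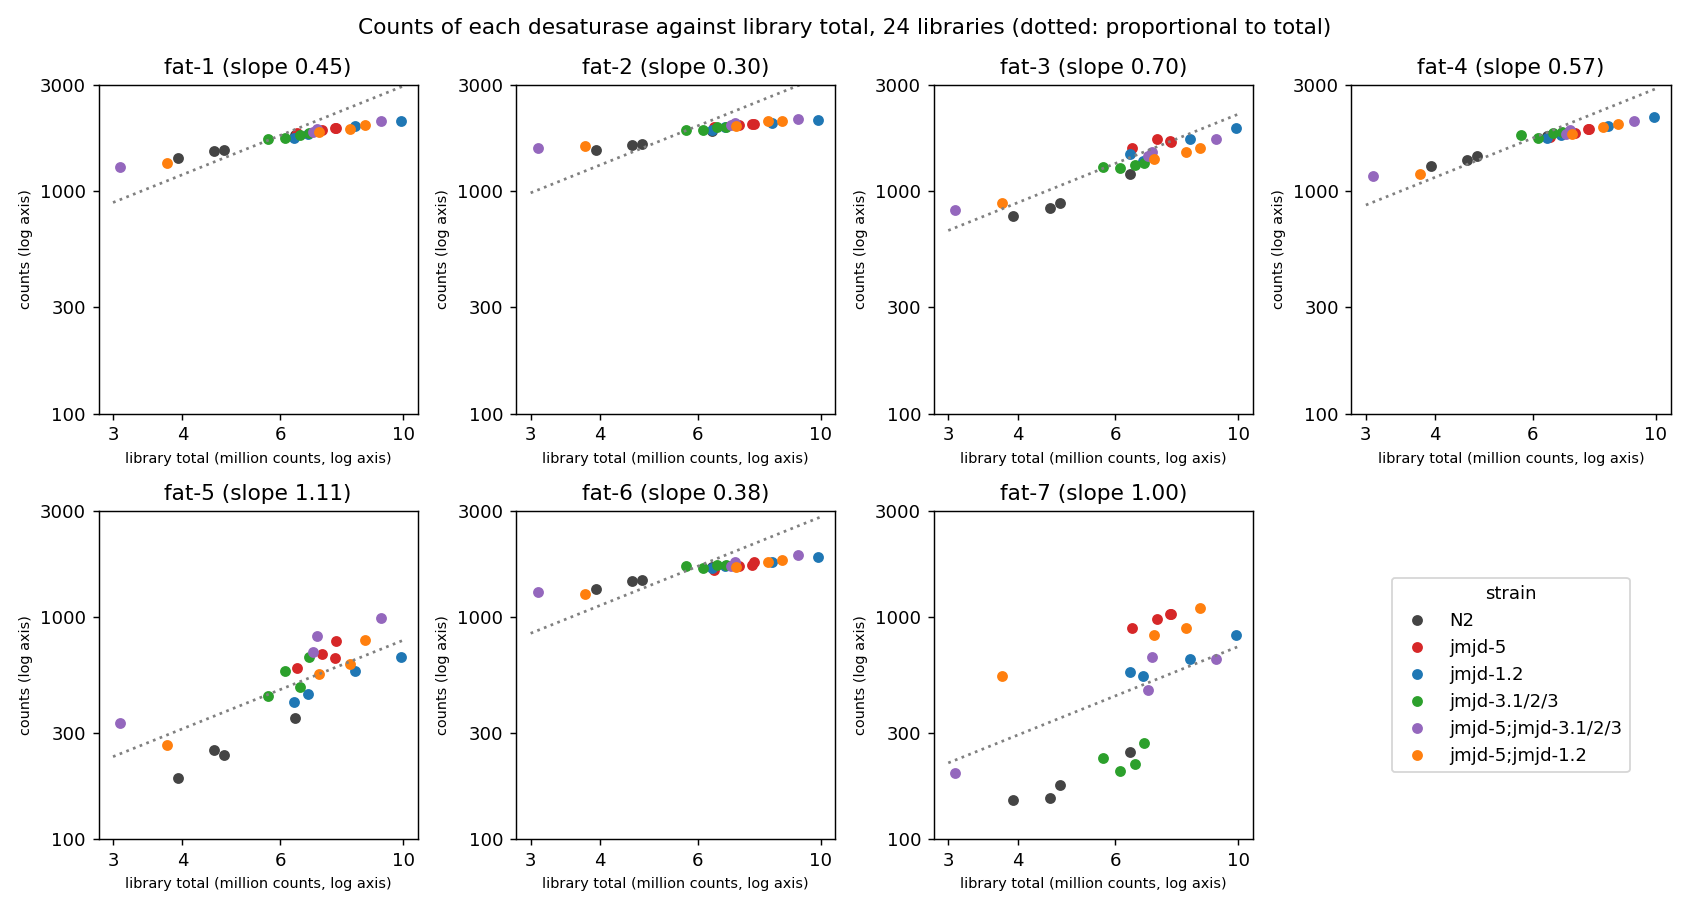
Counts of each desaturase (vertical, log axis) against the library total (horizontal, log axis) in the 24 libraries, coloured by strain, with a dotted line of proportionality and the slope within strains above each panel. *fat-1*, *fat-2*, *fat-4* and *fat-6* rise less steeply than the line, with little spread between strains at like totals, whereas *fat-5* and *fat-7* spread by strain.

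*fat-7* showed the largest differences of the family. It was at 39.1, 38.2 and 42.8 CPM in the 3 N2 samples, at 135.5, 139.6 and 134.4 CPM in *jmjd-5*, and at 108.4, 160.2, 117.1 and 118.9 CPM in the double mutant. It was at 76.8, 89.7, 77.1 and 81.6 CPM in *jmjd-1.2* and at 67.7, 72.4, 68.6 and 90.3 CPM in the quadruple mutant. It was at 32.4, 39.2, 33.1 and 39.4 CPM in the triple mutant. The strains thus fell into a low level (N2 and the triple mutant), a middle level (*jmjd-1.2* and the quadruple mutant) and a high level (*jmjd-5* and the double mutant), with overlapping samples within each level and none between levels. The highest double mutant sample was culture 2, the library of that strain with the lowest total.

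Against N2, *fat-7* was 3.43-fold higher in *jmjd-5* (log2 fold change 1.78 ± 0.13, SE; edgeR adjusted p = 2.41e-09). It was 3.14-fold higher in the double mutant (1.65 ± 0.12; edgeR adjusted p = 3.02e-09), 2.04-fold higher in *jmjd-1.2* (1.03 ± 0.12; 3.56e-06) and 1.88-fold higher in the quadruple mutant (0.91 ± 0.12; 1.88e-05). In the triple mutant the difference did not pass the test (log2 fold change -0.14, 95% interval -0.39 to 0.11; edgeR adjusted p = 0.353). The raw counts of libraries of near-equal total, chosen after the data were seen, are given as a description. N2 culture 1, with a total of 6372354, held 247 *fat-7* counts, and *jmjd-5* culture 2, with a total of 6431200, held 895. *jmjd-1.2* culture 2 held 565 at 6370996, quadruple mutant culture 3 held 471 at 6881159, and triple mutant culture 1 held 218 at 6508317. Double mutant culture 2, with a total of 3751667, held 544 *fat-7* counts, against 150 in N2 culture 3 at 3927979.

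**Figure D2:**
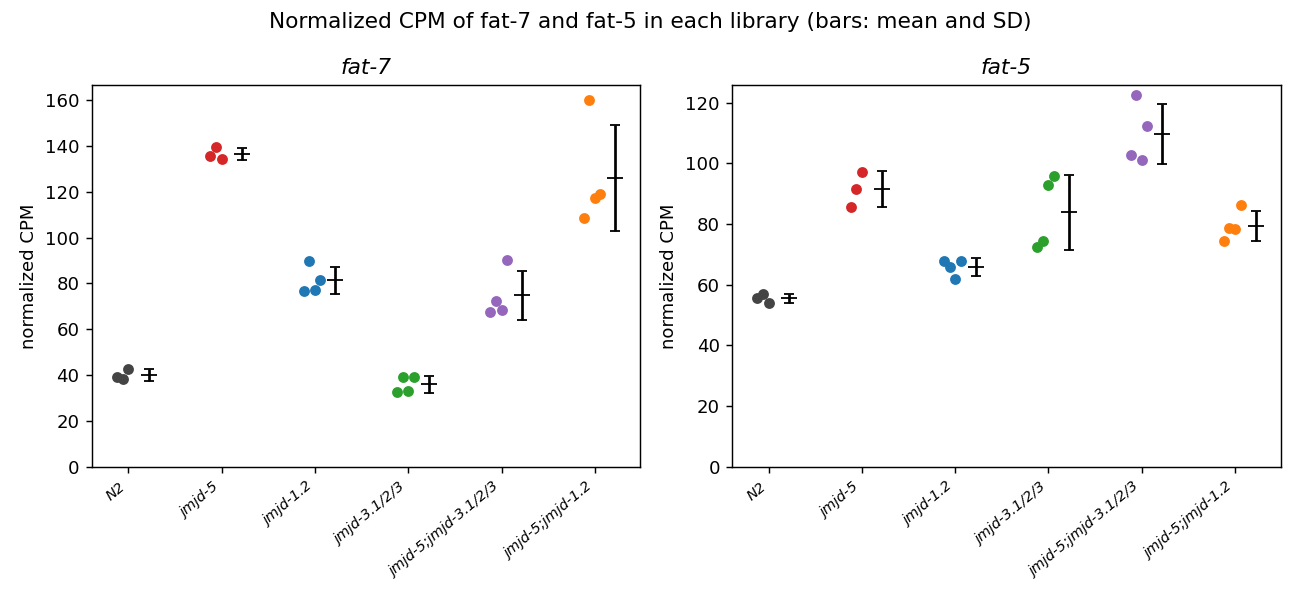
Normalized CPM of *fat-7* and *fat-5* (vertical) in each sample of the 6 strains, with near-identical libraries summed, and the mean and SD as black bars. *fat-7* lies at 38.2 to 42.8 CPM in N2 and at 134 to 140 CPM in *jmjd-5*, and *fat-5* is highest in the quadruple mutant, at 101 to 122 CPM.

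*fat-5* followed another order of strains. It was at 55.6, 56.8 and 53.99 CPM in N2, at 67.8, 65.9, 61.8 and 67.9 CPM in *jmjd-1.2*, and at 74.6, 78.6, 78.3 and 86.1 CPM in the double mutant. It was at 72.3, 74.3, 92.9 and 95.9 CPM in the triple mutant, at 85.6, 91.6 and 97.3 CPM in *jmjd-5*, and at 102.9, 122.4, 101.2 and 112.3 CPM in the quadruple mutant. N2 lay below every mutant sample and the quadruple mutant above every other sample, while the samples of *jmjd-5*, the triple mutant and the double mutant overlapped with each other. The gene rose against N2 by 0.97 ± 0.09 on the log2 scale in the quadruple mutant (SE; edgeR adjusted p = 3.21e-07), by 0.72 ± 0.10 in *jmjd-5* (4.55e-06), by 0.59 ± 0.09 in the triple mutant (4.81e-05) and by 0.52 ± 0.09 in the double mutant (0.000111). In *jmjd-1.2* the log2 fold change was 0.24 (95% interval 0.06 to 0.43), which did not pass the threshold of 0.01 (edgeR adjusted p = 0.0395), but passed it when libraries were scaled by their upper quartile (0.36; adjusted p = 0.00377) or by their totals alone (0.37; adjusted p = 0.00537). In the libraries of near-equal total, *fat-5* was at 351 counts in N2, 587 in *jmjd-5*, 415 in *jmjd-1.2*, 486 in the triple mutant and 695 in the quadruple mutant, and at 267 in double mutant culture 2 against 189 in N2 culture 3.

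*fat-6*, the close relative of *fat-7*, did not pass the test in any comparison when strain was the only term and all samples were used. Its CPM were 266 to 382 in N2, 223 to 253 in *jmjd-5*, 173 to 263 in *jmjd-1.2*, 248 to 286 in the triple mutant, 197 to 471 in the quadruple mutant and 196 to 373 in the double mutant. The log2 fold changes against N2 were between -0.55 (*jmjd-1.2*, edgeR adjusted p = 0.0569) and -0.19 (quadruple mutant, 0.525). Its raw counts ran from 1268 to 1887 over all libraries and were 1678 in N2 culture 1 against 1621 in *jmjd-5* culture 2, 1653 in *jmjd-1.2* culture 2 and 1706 in triple mutant culture 1. Reads that matched several places were discarded by the submitters, so that stretches shared by *fat-6* and *fat-7* are not counted for either gene.

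The ratio of *fat-7* to *fat-6* counts within a library does not depend on how libraries are scaled, but it shifts with the total, since *fat-6* counts rise less than the total. The ratio was 0.124 ± 0.020 (SD, n = 3) in N2, 0.581 ± 0.028 (n = 3) in *jmjd-5*, 0.51 ± 0.074 (n = 4) in the double mutant, 0.369 ± 0.054 (n = 4) in *jmjd-1.2*, 0.287 ± 0.097 (n = 4) in the quadruple mutant and 0.137 ± 0.016 (n = 4) in the triple mutant. Samples of *jmjd-5* and N2 did not overlap, but with 3 samples against 3 the smallest p an exact two-sided permutation test allows is 0.1, and it gave 0.1 (0.125 adjusted over the 5 mutants by the Benjamini-Hochberg method). With 4 against 3 the smallest exact p is 0.0571, which was reached in *jmjd-1.2* and both compound mutants (adjusted p = 0.0952) and not in the triple mutant (exact p = 0.343). Against *fat-5*, a second ratio added after the data were seen, because *fat-5* counts follow the totals, *fat-7* was at 0.723 ± 0.063 (SD, n = 3) in N2 and 1.496 ± 0.10 (n = 3) in *jmjd-5*. This ratio was 0.436 ± 0.072 (n = 4) in the triple mutant and 0.683 ± 0.089 (n = 4) in the quadruple mutant. The difference from N2 in this ratio was negative in the triple mutant (-0.74 on the log2 scale; exact permutation p = 0.0571, adjusted 0.0952) and positive in *jmjd-5* (1.05; 0.1, adjusted 0.125). It was 0.77 in *jmjd-1.2*, 1.12 in the double and -0.09 in the quadruple mutant. *fat-5* itself rose by 0.59 in the triple mutant and by 0.72 in *jmjd-5*, so that this ratio also carries the differences of *fat-5*.

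*fat-2* and *fat-1*, which make linoleic acid and omega-3 fatty acids, lay at lower mean CPM in every mutant than in N2, and none of these differences passed the test. *fat-2* was at 294, 375 and 438 CPM in N2, at 263, 303 and 265 CPM in *jmjd-5*, and at 220, 573, 289 and 277 CPM in the quadruple mutant. The highest of these values came from the library with the lowest total, quadruple mutant culture 2, which held 1568 *fat-2* counts, against 2112 in culture 1 of the same strain. At near-equal totals *fat-2* was at 1856 counts in N2, 1943 in *jmjd-5* and 1888 in *jmjd-1.2*, and *fat-1* was at 1786, 1831 and 1739 counts. *fat-4*, which acts late in the path to arachidonic and eicosapentaenoic acid, was at 1765, 1755 and 1729 counts in the same libraries. Its log2 fold changes against N2 were between -0.42 (*jmjd-1.2*, edgeR adjusted p = 0.0612) and -0.17 (quadruple mutant, adjusted p = 0.472). *fat-1* and *fat-2*, and likewise *fat-3* and *fat-4*, stand next to each other in the order of the tables, and the library kit does not mark strand, so that reads of any overlap between neighbours cannot be told apart.

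The calls on these abundant members differed between settings. With only N2 and *jmjd-5* fitted, *fat-6* (-0.49), *fat-1* (-0.40) and *fat-4* (-0.35) passed as lower in *jmjd-5* (edgeR adjusted p = 0.00314, 0.00843 and 0.00802). With the log2 library total as a term in the edgeR fit, the log2 fold changes of *fat-1*, *fat-2*, *fat-4* and *fat-6* against N2 were all between -0.06 and 0.07 and none passed. With both shallowest libraries left out (culture 2 of each compound mutant), an alternative added after the data were seen, *fat-1*, *fat-2*, *fat-4* and *fat-6* passed as lower in *jmjd-5*, *jmjd-1.2* and both compound mutants, with *fat-6* at -0.58 in *jmjd-5* (edgeR adjusted p = 0.00116).

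*fat-3* was the one abundant member that stood out at near-equal totals. Its CPM were 188 to 222 in N2, 220 to 244 in *jmjd-5*, 179 to 234 in *jmjd-1.2*, 195 to 217 in the triple mutant, 179 to 302 in the quadruple mutant and 170 to 260 in the double mutant, and no log2 fold change against N2 passed (highest 0.18 in *jmjd-5*, edgeR adjusted p = 0.312). Its counts, however, were 1188 in N2 culture 1 against 1564 in *jmjd-5* culture 2, 1471 in *jmjd-1.2* culture 2, 1310 in triple mutant culture 1 and 1438 in quadruple mutant culture 3, and 884 in double mutant culture 2 against 777 in N2 culture 3. With the log2 library total as a term, *fat-3* passed as higher than N2 in all 5 mutants, by 0.43 ± 0.04 on the log2 scale in *jmjd-5* (SE; edgeR adjusted p = 1.04e-07), 0.32 in *jmjd-1.2*, 0.26 in the quadruple mutant, 0.18 in the double mutant and 0.17 in the triple mutant. The result for *fat-3* therefore depends on this term. The totals of N2 and *jmjd-5* do not overlap, so that the slope of the term rests on libraries of all strains. Depth and strain are not separated between these 2 strains, for *fat-3* or for the other members. The counts at near-equal totals rest on a single N2 library, culture 1, in all mutants but the double mutant.

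**Figure D3:**
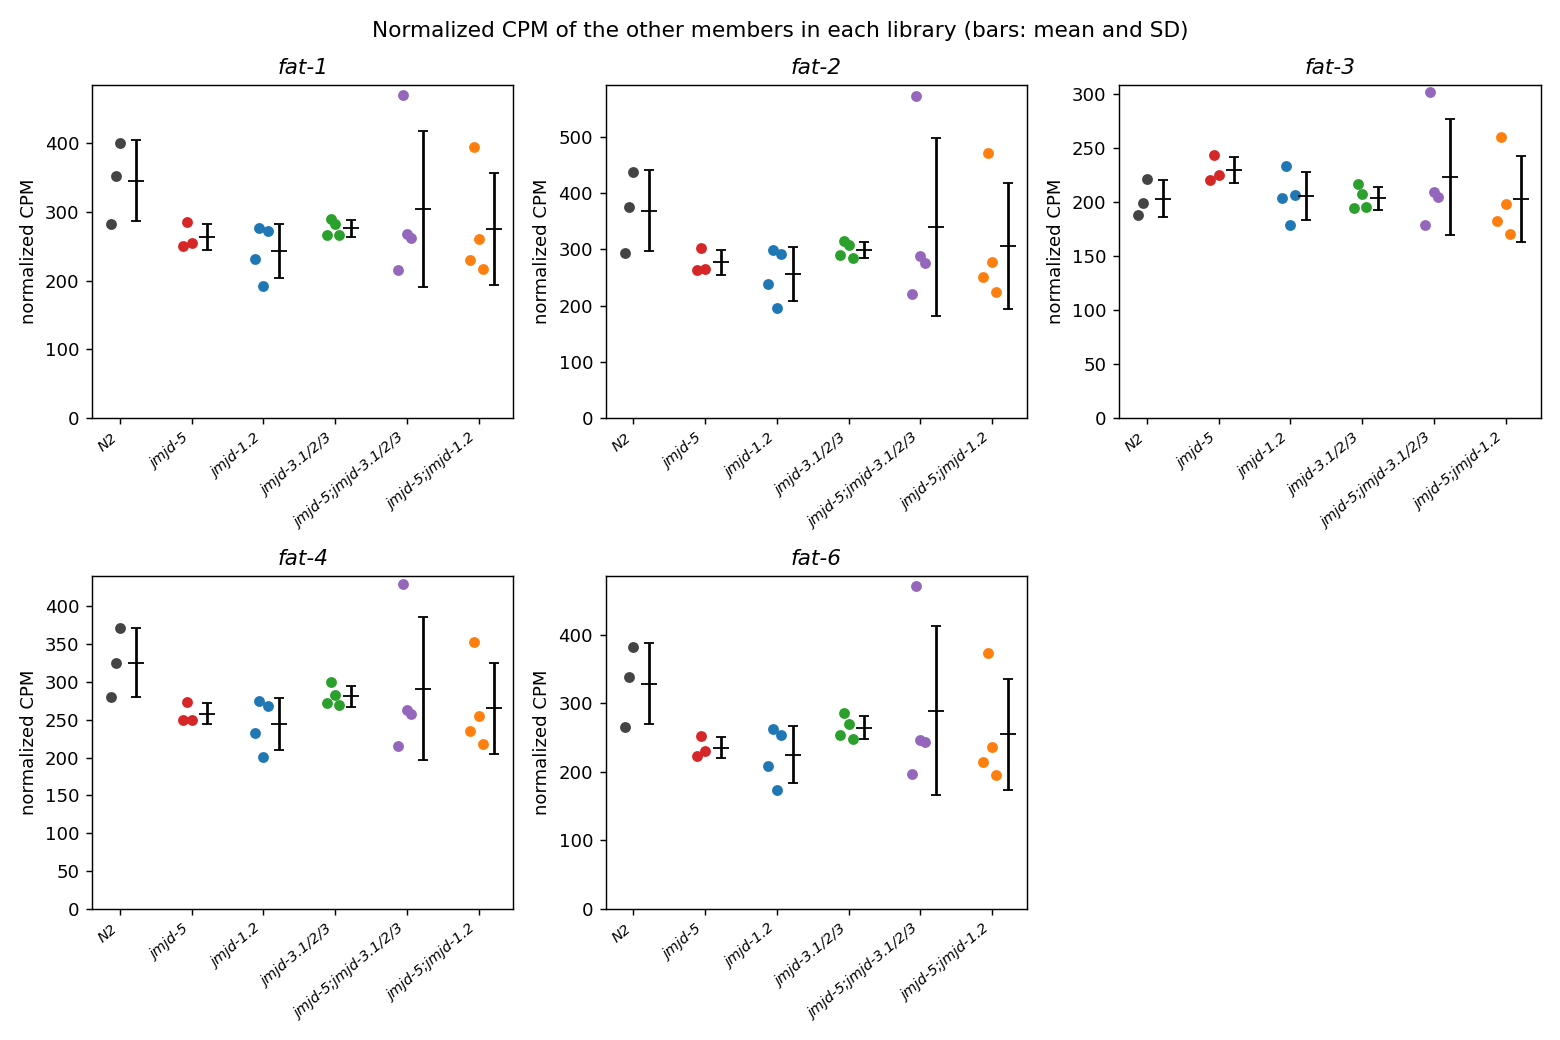
Normalized CPM (vertical) of *fat-1*, *fat-2*, *fat-3*, *fat-4* and *fat-6* in each sample of the 6 strains, with the mean and SD as black bars. The 3 *jmjd-5* samples lie below all N2 samples for *fat-6* and *fat-4* and overlap with them for *fat-1*, *fat-2* and *fat-3*, and the highest sample of each compound mutant is culture 2, the library with the lowest total of its strain.

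**Figure D4:**
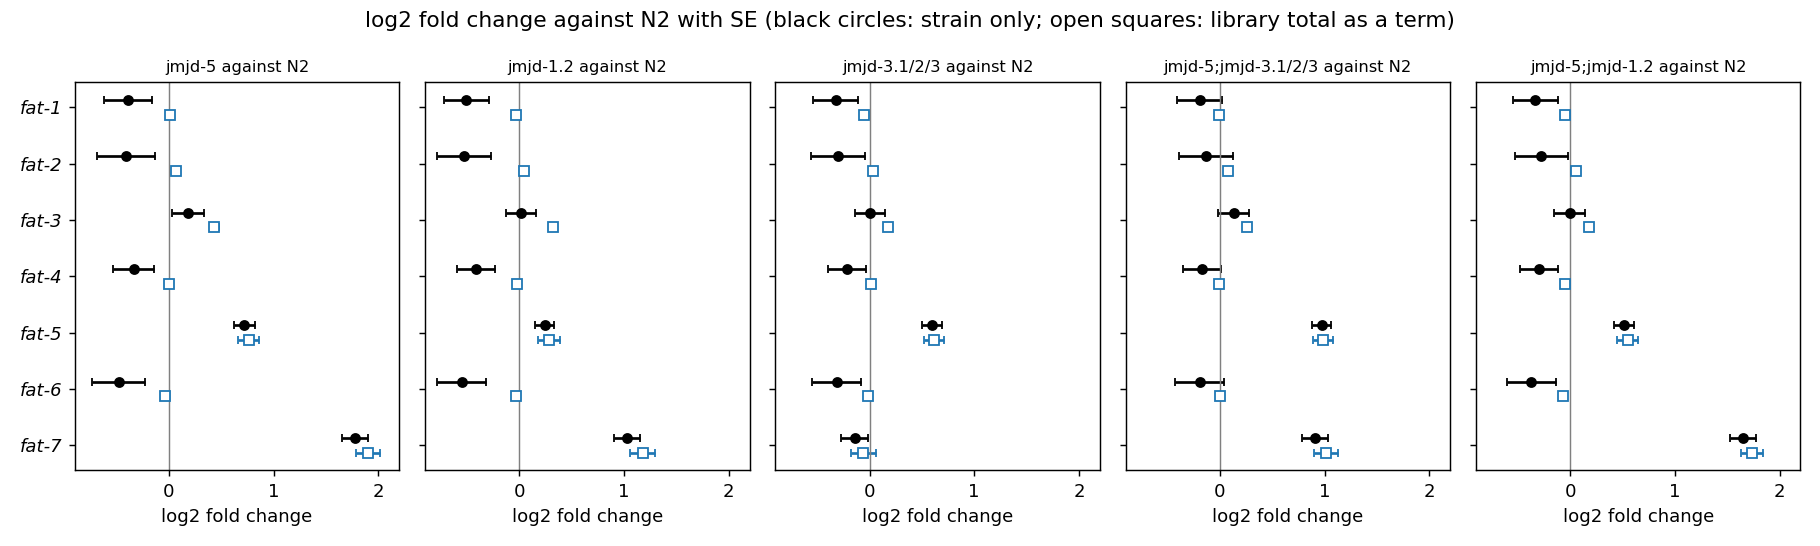
Difference of each desaturase from N2 as log2 fold change with SE (horizontal) in the 5 mutants, from the fit with strain only (black circles) and with the log2 library total as a term (open squares). *fat-5* and *fat-7* keep their place in both fits, *fat-1*, *fat-2*, *fat-4* and *fat-6* move to within 0.07 of 0, and *fat-3* moves above 0.

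Counted over the family, 2 of the 7 genes passed as higher in *jmjd-5*, where 28.6% of the 15641 genes tested did, and 1 of them, *fat-7*, also had a log2 fold change of at least 1, as did 16.1% of all genes. In *jmjd-1.2* 1 gene passed as higher (background 19.2%) and reached that size (8.15%). In the triple mutant 1 gene, *fat-5*, passed as higher (background 20.1%), without reaching that size (9.87%). In the quadruple mutant 2 genes passed as higher (background 16.9%) and 0 reached that size (7.08%). In the double mutant 2 genes passed as higher (background 26.9%) and *fat-7* reached that size (16.6%). Read against these backgrounds, 1 or 2 members of 7 are no result about the family as a whole. No member passed as lower in any mutant by edgeR or by DESeq2, where 17.3%, 6.82%, 10.5%, 4.07% and 12.8% of all genes did by edgeR in the same order of strains. At an unadjusted edgeR p under 0.05, 3 members were lower in *jmjd-1.2* and 0 in the other mutants. Without both shallowest libraries, as given above, 4 passed as lower in all mutants but the triple mutant, and with only N2 and *jmjd-5* fitted 3 passed as lower in *jmjd-5*. The median log2 fold change of all genes tested was between 0.01 and 0.09 in these comparisons, which share the N2 samples.

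The compound mutants were then compared with their parents, which asks whether loss of a second demethylase moves the genes beyond the first. *fat-7* fell by 0.87 ± 0.11 on the log2 scale from *jmjd-5* to the quadruple mutant (SE; edgeR adjusted p = 4.53e-05), and it was the only member among the 2.11% of genes lower there. From the triple mutant to the quadruple mutant it rose by 1.05 ± 0.11 (edgeR adjusted p = 3.03e-06), so that the 4 quadruple mutant samples lay between those of both parents. *fat-5* also rose in that comparison, by 0.38 ± 0.08 (adjusted p = 0.00453), which makes 2 members higher (background 3.67%). This call was lost when only both strains were fitted (adjusted p = 0.052), with library totals as the only scaling (0.0164), and without triple mutant culture 1 (0.0242) or 2 (0.0232) or quadruple mutant culture 2 (0.0104) or 4 (0.0168). Without both shallowest libraries 1 member passed as higher there.

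In the double mutant *fat-7* was not told apart from *jmjd-5* (log2 fold change -0.13, 95% interval -0.34 to 0.09; edgeR adjusted p = 0.659), and 0 members passed in either direction by edgeR or DESeq2 (background 0.454% higher and 0.742% lower), with 1 lower at an unadjusted edgeR p under 0.05. Against *jmjd-1.2* the double mutant was higher in *fat-7* by 0.62 ± 0.10 (edgeR adjusted p = 0.000335), the 1 member among the 7.25% of genes higher there, and this call was lost when only both strains were fitted (0.0142).

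The difference that *jmjd-5* loss made to *fat-7* was smaller when other demethylases were missing too. It was 1.78 on the log2 scale in the wild-type background, 1.05 in the triple mutant background and 0.62 in the *jmjd-1.2* background. The interaction terms were -0.72 ± 0.17 with the triple mutant (SE; edgeR adjusted p = 0.00155) and -1.16 ± 0.16 with *jmjd-1.2* (adjusted p = 8.03e-05), and *fat-7* was the 1 member to pass in each, where 21.6% and 9.26% of all genes passed in the same direction. For *fat-5* the terms were -0.34 (adjusted p = 0.031) and -0.45 (adjusted p = 0.0142). Both passed with upper-quartile scaling (-0.50, adjusted p = 0.00248, and -0.59, adjusted p = 0.00242).

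Among the 11178 genes with a mean of at least 10 CPM, the profiles over the 22 samples most like that of *fat-7* on the log2 CPM scale were those of *F09F7.6* (Pearson r = 0.94), *T28A11.2* (0.93) and *Y44A6C.1* (0.93). The profiles nearest *fat-5* were those of *thn-2* (0.89), *Y41C4A.11* (0.85) and *R08F11.4* (0.85). For *fat-1* and *fat-2* the nearest was the elongase gene *elo-1* (1.00 for both), whose counts rose by 0.37 per doubling of the total, and the nearest of *fat-6* was *idh-1* (1.00), with 0.39. *fat-3* was nearest to *metr-1* (0.91) and *fat-4* to *dct-18* (1.00). These samples share library depth and strain, so that the coefficients are descriptions.

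The other genes of lipid metabolism were read from lists. Of 13 genes of fatty acid synthesis and elongation, 4 passed as higher in each mutant, and they were the same genes, the elongases *elo-4*, *elo-7*, *elo-8* and *elo-9*. The share of all genes that did so was 28.6% in *jmjd-5*, 19.2% in *jmjd-1.2*, 20.1% in the triple mutant, 16.9% in the quadruple and 26.9% in the double mutant, so that nothing is read from the count about the list. *elo-7* was at 8.68 to 11.9 CPM in N2, 30.3 to 34.6 CPM in *jmjd-5* and 23.3 to 32.4 CPM in the triple mutant, and rose by 1.64 and 1.41 on the log2 scale (edgeR adjusted p = 1.88e-06 and 1.72e-05). *elo-4* rose by 1.54 and *elo-8* by 1.07 in the triple mutant (adjusted p = 6.89e-06 and 1.13e-05), the strain in which *fat-7* did not pass. With the library total as a term *elo-4* no longer passed in *jmjd-1.2* (0.55, adjusted p = 0.0476). The median of the list was -0.30 in *jmjd-5*, against 0.09 for all genes. As lower, *elo-3* passed in *jmjd-5* and *elo-6* in *jmjd-1.2*. Counts of *elo-6* rose by only 0.40 per doubling of the total, those of *elo-1* by 0.37, of *elo-5* by 0.46 and of *elo-2* by 0.60. The median of the list and the call on *elo-6* are therefore subject to the limit of depth described for *fat-6*. No value for *elo-6* with the library total as a term is given.

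Of the 13 fatty acid oxidation genes found in the tables, of 15 listed, 3 passed as higher in *jmjd-5*, 2 in *jmjd-1.2*, 0 in the triple mutant, 1 in the quadruple and 3 in the double mutant. *acs-2*, an acyl-CoA synthetase that, like *fat-7*, is a known target of the nuclear receptor NHR-49, was at 69.4 to 99.1 CPM in N2, 236 to 255 CPM in *jmjd-5*, 183 to 218 CPM in *jmjd-1.2*, 93.0 to 127 CPM in the triple mutant, 141 to 206 CPM in the quadruple mutant and 229 to 251 CPM in the double mutant. It rose by 1.53 in *jmjd-5*, 1.28 in *jmjd-1.2*, 0.94 in the quadruple and 1.51 in the double mutant (edgeR adjusted p = 7.25e-08, 7.83e-07, 3.27e-05 and 3.05e-08), and its log2 fold change in the triple mutant was 0.43 (adjusted p = 0.0119), which passed with the library total as a term (0.48, adjusted p = 0.00702). *cpt-4*, of the carnitine palmitoyltransferase family, rose by 1.46, 1.80 and 1.98 in *jmjd-5*, *jmjd-1.2* and the double mutant (adjusted p = 6.07e-05, 1.27e-05 and 8.54e-07). Its log2 fold changes in the triple and quadruple mutants, 0.81 and 0.83, did not pass (edgeR adjusted p = 0.0132 and 0.0157). Counts of *cpt-4* rose by 1.79 per doubling of the total. With the total as a term it was at 1.178, 1.435 and 1.716 in *jmjd-5*, *jmjd-1.2* and the double mutant (edgeR adjusted p = 6.58e-05, 4.14e-05 and 5.28e-07). *cpt-3* passed in the double mutant only, with 101 raw counts over its 4 libraries against 17 in N2, which was less deeply sequenced. Its log2 fold change there was 1.91 (edgeR adjusted p = 0.000587), and 1.72 with the total as a term (0.00399). The genes that passed as lower, named after their values were seen, were *cpt-1* in *jmjd-5*, the triple and the quadruple mutant (-0.38, -0.39 and -0.36; edgeR adjusted p = 0.00276, 0.00204 and 0.00549), *cpt-6* in the triple and double mutants (-0.56 and -0.55; 0.00303 and 0.00264) and *cpt-5* in the double mutant (-0.60; 4.32e-05). *cpt-5* passed as higher in *jmjd-5* (0.36; edgeR adjusted p = 0.00526). The median of the list was between -0.21 and -0.01 in the 5 mutants, and its counts are to be read beside the shares of all genes given above.

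No gene on the list of 11 regulators of desaturase transcription reached a log2 fold change of 1 in any mutant. The genes that passed were few and are named after their values were seen, and their counts are to be read beside the shares of all genes given above. *nhr-80*, a nuclear receptor gene required for full expression of *fat-5*, *fat-6* and *fat-7*, was at 34.5 to 36.9 CPM in N2 and 53.0 to 55.5 CPM in *jmjd-5*, and rose by 0.60 in *jmjd-5*, 0.36 in *jmjd-1.2*, 0.50 in the quadruple and 0.47 in the double mutant (edgeR adjusted p = 1.28e-05, 0.0025, 0.000227 and 0.000114). In the triple mutant its log2 fold change was 0.25 (adjusted p = 0.0256), and with the library total as a term that in *jmjd-1.2* was no longer past the threshold (0.22, adjusted p = 0.0201). *nhr-64* passed as higher in the same 4 strains, by 0.49 to 0.63, but in *jmjd-1.2* not with that term (adjusted p = 0.0102), and *nhr-66* passed as lower in *jmjd-5*, the triple mutant and the double mutant. Counts of *nhr-80* and *nhr-64* rose by 1.40 and 1.41 per doubling of the total. With the total as a term they were at 0.49 and 0.40 in *jmjd-5* (edgeR adjusted p = 2.79e-06 and 0.00301). *sbp-1*, the worm SREBP and an activator of lipogenic genes, fell by 0.54 in the double mutant (adjusted p = 5.47e-05). With the total as a term *sbp-1* also passed as lower in *jmjd-5* (-0.30, edgeR adjusted p = 0.00703) and *jmjd-1.2* (-0.37, 0.00401), and *nhr-66* also in *jmjd-1.2* (-0.22, 0.00634) and the quadruple mutant (-0.20, 0.00605). *nhr-49* was at 136 to 146 CPM in N2 and 136 to 145 CPM in *jmjd-5*, and neither it nor the Mediator subunit gene *mdt-15* passed in any mutant.

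**Figure D5:**
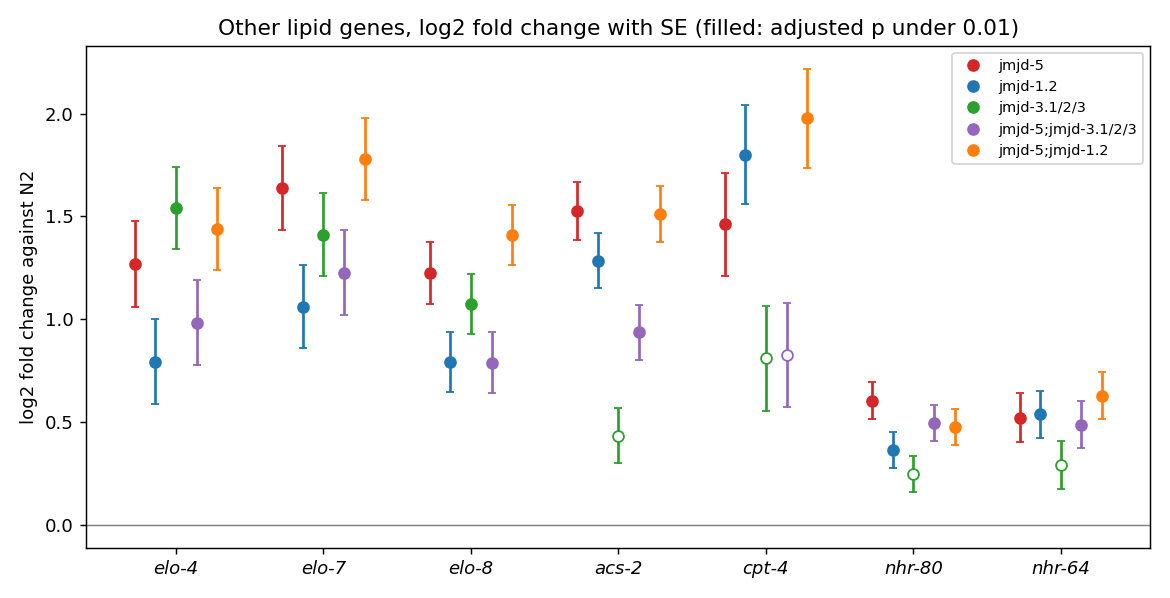
Difference from N2 as log2 fold change with SE (vertical) of 7 named genes of the lipid lists (horizontal), with 1 point per mutant, filled where the edgeR adjusted p was under 0.01. *elo-4*, *elo-7* and *elo-8* are filled in all 5 mutants, whereas *acs-2*, *cpt-4*, *nhr-80* and *nhr-64* are open in the triple mutant, and *cpt-4* also in the quadruple mutant.

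Of 9 lipolysis genes, the lysosomal lipase genes *lipl-3* and *lipl-4* were the ones to pass as higher. Both did so in *jmjd-5*, the triple and the double mutant, where 28.6%, 20.1% and 26.9% of all genes did. In *jmjd-1.2* and the quadruple mutant 1 did (19.2% and 16.9% of all genes), so that nothing is read from the counts about the list. *lipl-4* had 2 counts in all over the 4 N2 libraries and 58 in *jmjd-5*, 67 in *jmjd-1.2*, 41 in the triple mutant, 26 in the quadruple and 78 in the double mutant, and passed in all but the quadruple mutant (edgeR adjusted p = 0.0196 there). *lipl-3* had 36 counts in N2 and 173 in *jmjd-5*, and passed in all but *jmjd-1.2* (adjusted p = 0.0103), and with the total as a term not in the quadruple mutant either (0.0116). These are sums of raw counts over libraries of unlike depth. In *jmjd-5* the log2 fold changes of *lipl-4* and *lipl-3* were 3.96 and 1.64, and 3.60 and 1.29 with the total as a term. Their counts rose by 1.49 and 2.01 per doubling of the total. As lower, *lid-1* passed in *jmjd-5* (-0.47, edgeR adjusted p = 0.000242) and the double mutant (-0.34, 0.0026), *lipl-1* in *jmjd-1.2* (-0.94, 0.00135) and *lipl-2* in the triple mutant (-0.51, 0.009). On the lists of 4 cytochrome b5 and reductase genes, which supply electrons to desaturases, 9 lipid binding protein genes and 8 phosphatidylcholine synthesis genes, at most 2 genes passed in 1 direction in any mutant and none reached a log2 fold change of 1. These counts, and those of lipolysis genes that were lower, are to be read beside the shares of all genes given above.

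Levels of tissue markers were read in the same samples. Summed over 8 genes, intestine markers were at 1440 to 1972 CPM in N2 and 1358 to 1519 CPM in *jmjd-5*, with 1 passing as higher, and their sums overlapped with N2 in every mutant. Of 6 hypodermis markers, 5 passed as higher in *jmjd-5*, *jmjd-1.2* and the triple mutant and 4 in each compound mutant, with summed levels of 431 to 663 CPM in N2 and 682 to 735 CPM in *jmjd-5*. Their sums overlapped with N2 in *jmjd-1.2* (497 to 732 CPM), the triple mutant (629 to 755 CPM) and the quadruple mutant (521 to 862 CPM). They did not overlap in the double mutant (700 to 874 CPM). Of 6 sperm markers, 5 passed as higher in *jmjd-5* (382 to 405 CPM against 223 to 290 CPM in N2), 1 in *jmjd-1.2*, 4 in the triple mutant, 3 in the quadruple and 5 in the double mutant, and of 5 oocyte markers 3 passed as lower in *jmjd-5* (1790 to 1919 against 2447 to 3253 CPM). No marker of these lists was at 0 in a whole strain. Body wall muscle had 3 of 5 markers higher in *jmjd-5*, 1 in *jmjd-1.2* and 1 in the double mutant, and neurons 2 of 5 in *jmjd-5*, 2 in the double and 1 in the quadruple mutant. Of 6 germline markers 1 passed as lower in *jmjd-5*, in the triple and in the quadruple mutant. Of all genes tested, 28.6% passed as higher in *jmjd-5*, 19.2% in *jmjd-1.2* and 20.1% in the triple mutant. In the quadruple mutant 16.9% did and in the double mutant 26.9%. As lower, 17.3% passed in *jmjd-5*, 10.5% in the triple and 4.07% in the quadruple mutant. Beside these shares, 1 or 2 markers are no result about a tissue. The 6 yolk genes summed to 5728 to 9383 CPM in N2 and 4604 to 5299 CPM in *jmjd-5*. These sums are not read as a difference, since *vit-6* counts were nearly flat across libraries and N2 was less deeply sequenced than *jmjd-5*. The lower oocyte markers in *jmjd-5* are not read as a difference either. No counts at near-equal totals and no fit with the library total are given for them. The same holds for the hypodermis, sperm, muscle and neuron markers, so that their higher calls are not read as a difference of tissue. Counts of rare genes rose more than in proportion to the totals, by a median of 1.54 per doubling for genes with a mean count under 100. Slopes of the markers are not given. The part of the markers in the results for *fat-5* and *fat-7* was not tested, and in whole worms more cells of a type and more RNA per cell cannot be told apart.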

How the data were processed

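RNA of whole young adults was read as counts per gene. The authors aligned the reads to ce10 with STAR, dropped reads with several matches, used samblaster against PCR duplicates, and deposited raw counts from featureCounts. Tool versions are not given in the sources used here. The deposited peak lists and the authors' DESeq2 tables (called genes with mean signal, fold changes and adjusted p-values) were not used. Libraries of a strain with a mean chi-square per gene under 1.1, where another pair of that strain reached 1.3, were summed.

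All strains entered one quasi-likelihood model of edgeR 4.0.16 (R 4.3.3) with strain as its sole term, after TMM scaling and the filterByExpr filter on low counts. Of 42048 genes, 15641 were tested, with all 7 desaturases among them. A gene passed at a Benjamini-Hochberg adjusted p under 0.01. The 95% intervals were taken from the SE by a normal approximation, which with few samples makes them narrower than the edgeR test would. Interactions are the effect of *jmjd-5* loss in a mutant background minus that in wild type. Alternatives were DESeq2 1.42.0, other scalings, filters and terms, and each culture left out. All p-values measure the spread between cultures of 1 strain per genotype.

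The members and gene lists were chosen with earlier results of these data known. From the lists, genes were named that passed with an absolute log2 fold change of at least 1 in a mutant (up to 4 per list), and for each desaturase the 3 genes of highest Pearson correlation. Of the lists, *ech-1.1* and *acox-1.1* were not found under these names. Gene lengths were not used, so that levels are compared between strains and not between genes. Figures were drawn with matplotlib.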

Additional observations from a re-analysis of the deposited data

Results flagged for a closer look

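Both interaction terms of *fat-7* passed the test, so that the effect of *jmjd-5* loss differed between backgrounds. The term was -0.72 on the log2 scale with the triple mutant (edgeR adjusted p = 0.00155) and stayed past the threshold with each culture left out, between -0.85 and -0.64. With *jmjd-1.2* it was -1.16 (adjusted p = 8.03e-05), between -1.31 and -1.07 with each culture left out. No sample stood apart from its group by Dixon's test in the 28 groups tested, each desaturase in the 4 strains with 4 samples. N2 and *jmjd-5*, with 3 samples, were not tested. With 4 samples this test flags little: *fat-6* was at 471 CPM in quadruple mutant culture 2 and at 197 to 246 CPM in its other cultures. Over all genes, pairs with culture 2 had a mean chi-square per gene of 9.40 to 18.67 in the quadruple mutant, against 3.57 to 5.33 in its other pairs. In the double mutant they had 9.77 to 15.74, against 1.68 to 3.345.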

How the results depend on the processing

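All 14 called log2 fold changes of the desaturases kept their sign in all 248 alternatives and 241 stayed past the threshold, and those of *fat-5* and *fat-7* against N2 stayed on their side of it in 168 of 170. Alternatives moved counts of members, here given as passed higher, lower, or passed with a log2 fold change of at least 1 (large). DESeq2 gave 0 large in *jmjd-1.2*. With upper-quartile scaling 2 passed higher in *jmjd-1.2*, 1 was large in the quadruple mutant and 2 were lower in each interaction. With library totals only, 2 passed higher in *jmjd-1.2*, 2 were large in the quadruple mutant, 1 was higher against the triple mutant and 2 were lower in each interaction. With only the strains compared, 3 were lower in *jmjd-5*, 0 large in *jmjd-1.2*, 1 higher in quadruple against triple, 0 higher in double against *jmjd-1.2* and 2 lower in the interaction with *jmjd-1.2*. With the library total as a term, 2 were higher in *jmjd-1.2* and in the triple mutant, 3 in the other mutants, 1 large in the quadruple mutant, 2 lower from *jmjd-5* to quadruple, 1 lower from *jmjd-5* and from *jmjd-1.2* to double, and 2 lower in each interaction. A test against a minimum fold left 0 large in *jmjd-1.2*, in quadruple against triple and in the interaction with *jmjd-1.2*. Without both shallowest compound libraries, a choice made after seeing the data, 4 were lower in *jmjd-5*, *jmjd-1.2*, quadruple and double, 1 higher in quadruple against triple and 0 large in *jmjd-1.2*. With all libraries separate, 2 were lower in the interaction with *jmjd-1.2*, and the log2 ratio of *fat-7* to *fat-6* differed from N2 by 2.27, 1.61, 1.18 and 2.07 in *jmjd-5*, *jmjd-1.2*, quadruple and double (exact permutation p = 0.0286 each).

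Correlations of deviations between strains were over 0.1 for 27 of 60 pairs of the same culture number (from -0.23 to 0.53, median 0.069) and for 39 of 180 pairs of different numbers (median -0.014). Not every same-number pair was over 0.1, and the main fit left the numbers out. Same-number pairs were over 0.1 more often than the others, though, so that these values cannot decide whether the numbers are pairs. A fit with the numbers as a block is therefore given as an alternative. A replicate block together with all libraries kept separate gave 1 lower in *jmjd-5*, 3 in *jmjd-1.2* and 2 in each interaction, and *fat-3* in the triple mutant at -0.014. Separate libraries without the block already gave the 2 in the interaction with *jmjd-1.2* and -0.011 for *fat-3*.

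The values that changed sign had not passed with strain as the only term, were up to 0.66 in size there, and the cause was not tested. *fat-3* was -0.011 in the triple mutant with all libraries separate, -0.022 in *jmjd-1.2*, -0.029 in the triple mutant and 0.018 in its interaction by DESeq2, 0.082 and 0.083 in the double mutant with upper-quartile and total scaling, -0.026 in *jmjd-1.2* and 0.0075 in the double mutant with only the strains compared, and -0.035, -0.065 and -0.12 in *jmjd-1.2*, triple and quadruple without both shallowest libraries. *fat-4* was -0.0018 in double against *jmjd-5* and -0.012 in quadruple against triple with upper-quartile scaling, and -0.025 in the latter with totals. With the library total as a term, *fat-2* was 0.072, 0.045, 0.029, 0.074 and 0.053 in the 5 mutants, *fat-1* 0.0098 in *jmjd-5*, *fat-4* 0.015 in triple and *fat-3* 0.18 in double. With that term *fat-1* and *fat-4* were -0.019 and -0.010 in quadruple against *jmjd-5*, *fat-4* -0.026 in quadruple against triple, *fat-1*, *fat-2*, *fat-4* and *fat-6* -0.061, -0.019, -0.053 and -0.026 in double against *jmjd-5*, *fat-1*, *fat-4* and *fat-6* -0.019, -0.035 and -0.034 in double against *jmjd-1.2*, *fat-2* and *fat-4* -0.027 and -0.025 in the interaction with the triple mutant, and *fat-1*, *fat-2* and *fat-4* -0.029, -0.064 and -0.034 in that with *jmjd-1.2*.

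Leaving out 1 culture at a time moved the large members in *jmjd-1.2* and in quadruple between 0 and 1, those lower in each interaction between 1 and 2, and those higher and large in quadruple against triple between 1 and 2 and between 0 and 1. *fat-3* then ranged from -0.051 to 0.090 in *jmjd-1.2*, -0.075 to 0.084 in triple, -0.038 to 0.21 in quadruple, -0.15 to 0.080 in double, -0.22 to 0.077 in the interaction with the triple mutant, -0.22 to 0.058 in quadruple against *jmjd-5*, -0.19 to 0.056 in double against *jmjd-1.2* and -0.043 to 0.23 in quadruple against triple, and *fat-2* from -0.49 to 0.029 in quadruple. *fat-1*, *fat-2*, *fat-4* and *fat-6* ranged from -0.084 to 0.35, -0.080 to 0.46, -0.072 to 0.30 and -0.041 to 0.45 in quadruple against *jmjd-5*, from -0.18 to 0.16, -0.16 to 0.26, -0.14 to 0.12 and -0.14 to 0.21 in double against *jmjd-5*, from -0.071 to 0.28, -0.054 to 0.38, -0.071 to 0.21 and -0.086 to 0.29 in double against *jmjd-1.2*, and from -0.15 to 0.28, -0.19 to 0.35, -0.20 to 0.18 and -0.21 to 0.28 in quadruple against triple.

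Upper-quartile and total scaling moved the median log2 fold change of all genes against N2 by 0.0811 to 0.124 and the interactions by -0.152 to -0.131. The share of calls that were higher in *jmjd-5* was 62.3% with TMM, 74.2% with upper quartiles, 72.1% with totals and 54.6% with the total as a term. In the same order it was 73.8%, 85.8%, 84.8% and 67.1% in *jmjd-1.2*, 65.6%, 83.8%, 87% and 53.6% in triple, 80.6%, 86.8%, 88.6% and 63.9% in quadruple, 67.9%, 77.5%, 77.8% and 56.6% in double, 38.5%, 23.5%, 24.4% and 47% in the interaction with the triple mutant and 27.2%, 13.1%, 14.9% and 39.9% in that with *jmjd-1.2*.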
